A study of Mus musculus with 12 samples.

Results

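The collagen chain genes of aged mouse soleus were described across high functioning (HF) and low functioning (LF) animals, with and without abdominal surgery. Members were the genes of the deposited table whose mouse symbol is Col, a number, the letter a and a number, and 44 of the 30323 genes matched. Of these, 21 had a mean of at least 1 TPM (a transcript abundance scaled by transcript length and by library total, so that levels of different genes can be set side by side) over all libraries and entered the tests, which covered 10757 genes.

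The soleus, a slow postural muscle of the calf, was taken from male C57BL/6N mice aged 24 months from an aging colony, all housed singly with a running wheel for 8 weeks. HF and LF mice were told apart by an accelerating rotarod, and laparotomy, a surgical opening of the abdomen, was compared with a control treatment, with muscle collected 5 days after surgery. The 12 libraries formed 4 groups of 3: HF laparotomy, HF control, LF laparotomy and LF control. No younger animals were included, and HF and LF are classes of one aged inbred strain, not genotypes. Library numbers pair nothing. Whether every library came from its own mouse is not stated in the labels, so the p-values describe the scatter among libraries, part of which may be technical. Libraries were made from polyA RNA. Each library listed 16993 to 18148 genes above 0, and read depth is unknown. All 10 muscle fibre markers examined, among them slow myosin Myh7 and slow troponin Tnnt1, had a mean of at least 1 TPM, and their summed level was 58710 to 76880 TPM.

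Collagens are secreted proteins built of chains wound into a triple helix. In muscle, fibrillar collagens of types I, III and V form the cables of the sheaths around fibres and fascicles, type IV collagen forms the network of the basement membrane that coats each fibre and capillary, and type VI collagen forms beaded filaments between them. Fibril-associated collagens bind to the surface of fibrils, and multiplexins lie in basement membrane zones. Most fibrillar collagen in muscle is made by fibroblasts, and the matrix of aged muscle is known to thicken and stiffen.

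Sequence upstream of the transcript start is shown for Col1a2 and Col3a1, chains of type I and type III fibrils with a wide range between libraries, and for Col20a1 and Col4a5, the chains with the smallest p for HF against LF. Each is the 250 bases before a RefSeq transcript start on GRCm38.p6, on the plus strand, written 5′ to 3′. The positions are chr6:4505368-4505617 for Col1a2, chr1:45311288-45311537 for Col3a1, chr2:180986285-180986534 for Col20a1 and chrX:141475169-141475418 for Col4a5. Capitals mark matches on either strand to CCAAT (the CCAAT box), to GGGCGG (the GC box) and to TATAAA (the TATA box). The marked matches do not overlap.
Col1a2: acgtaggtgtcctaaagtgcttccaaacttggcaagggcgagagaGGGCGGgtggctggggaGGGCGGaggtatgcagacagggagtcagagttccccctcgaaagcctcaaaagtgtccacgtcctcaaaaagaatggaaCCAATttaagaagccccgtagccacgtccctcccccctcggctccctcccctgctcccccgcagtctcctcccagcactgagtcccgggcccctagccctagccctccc
Col3a1: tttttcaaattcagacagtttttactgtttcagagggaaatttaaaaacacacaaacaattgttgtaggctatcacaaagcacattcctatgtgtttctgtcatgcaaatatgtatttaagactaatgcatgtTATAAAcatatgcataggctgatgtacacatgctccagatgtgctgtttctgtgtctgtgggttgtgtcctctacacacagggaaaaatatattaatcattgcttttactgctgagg
Col20a1: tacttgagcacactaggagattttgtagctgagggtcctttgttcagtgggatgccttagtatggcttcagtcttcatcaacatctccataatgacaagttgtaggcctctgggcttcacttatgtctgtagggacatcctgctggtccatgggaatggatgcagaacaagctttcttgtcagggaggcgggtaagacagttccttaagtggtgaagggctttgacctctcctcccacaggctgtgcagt
Col4a5: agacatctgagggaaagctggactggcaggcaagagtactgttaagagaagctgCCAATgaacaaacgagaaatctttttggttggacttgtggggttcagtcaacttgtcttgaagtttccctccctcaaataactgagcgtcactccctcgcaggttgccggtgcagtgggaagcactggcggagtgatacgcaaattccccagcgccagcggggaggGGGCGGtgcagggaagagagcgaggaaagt
Col1a2 held 1 CCAAT and 2 GGGCGG, Col4a5 held 1 of each, Col3a1 held 1 TATAAA at 117 to 112 bases before its start, and Col20a1 held none of them. Among the 32851 upstream windows of the mouse RefSeq table, 33.8% held CCAAT, 32.7% held GGGCGG and 12.4% held TATAAA. The table matched 16 of the 21 tested collagens, and of their 18 windows 7 held CCAAT, 11 held GGGCGG and 1 held TATAAA. A match is a description of letters and not a bound site.

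Among the tested collagens the highest levels belonged to Col3a1, the single chain of type III collagen, at a mean of 16.8 TPM over all 12 libraries, Col4a1 at 15.8 TPM and Col4a2 at 14.9 TPM, the main chains of type IV. Col1a2 averaged 7.17 TPM and Col1a1 3.76 TPM, the chains of type I. Type VI chains Col6a1, Col6a2 and Col6a3 averaged 6.18, 5.50 and 4.75 TPM, and the multiplexin Col15a1 5.23 TPM. All other tested members lay below 3 TPM. Col4a1 exceeded Col3a1 in 8 of 12 libraries, so the order of these neighbours depended on the library. Col6a1 exceeded Col6a2 in all 12 libraries, while Col4a1 exceeded Col4a2 in 9 of 12.

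**Figure D1:**
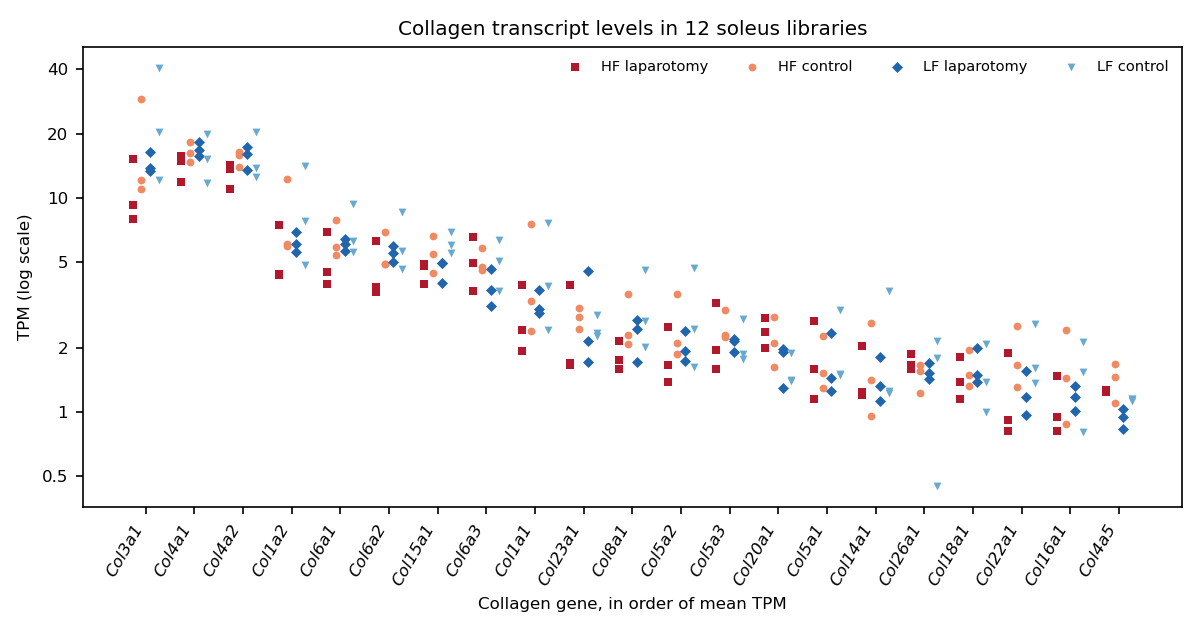
Level of each of the 21 tested collagen genes in every library, in TPM on a log axis, with genes ordered by their mean over 12 libraries and points coloured and shaped by group. Col3a1 spans 8.01 to 40.7 TPM while Col4a1 spans 11.7 to 19.9 TPM, and the isolated low point of Col26a1, at 0.449 TPM, is an LF control library.

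Summed over all 44 genes, collagen made up 75.3, 83.4 and 112.8 TPM in HF laparotomy libraries and 103.3, 142.1 and 97.8 TPM in HF control libraries. The sums were 101.3, 106.0 and 95.5 TPM in LF laparotomy libraries and 172.2, 102.9 and 91.0 TPM in LF control libraries. LF control 1 and HF control 2 stood above the other 10 libraries, and HF laparotomy 1 and 2 were the lowest. Fibrillar genes supplied 26.5% to 43.2% of collagen TPM and type IV genes 21.7% to 36.8%, and the fibrillar share was highest in LF control 1 and next in HF control 2. Type VI genes kept a narrower share, 14.2% to 17.7%.

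LF control 1 was the highest library for 14 of the 21 genes, among them Col3a1, Col1a1, Col1a2 and both main type IV chains, and the lowest for Col26a1. HF control 2 was highest or second highest for 13 genes, and HF laparotomy 1 was the lowest for 10. The fold between the highest and the lowest library had a median of 2.60 over the 21 collagens. It was 1.75 over the 10696 tested genes above 0 in every library, which were not matched to the collagens for level. The fold was 5.08 for Col3a1, wider than 97.2% of tested genes, and 3.97 for Col1a1, wider than 95.7%. For Col4a1 it was 1.70 and for Col15a1 1.75, near the middle of all genes. Each of the 6 tested fibrillar chains had a wider fold than Col4a1 and Col4a2.

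Summed tenocyte markers, genes of tendon cells such as Tnmd, Scx and Fmod, shared this pattern in their 2 highest libraries. They were at 20.1 to 23.7 TPM in HF laparotomy libraries, against 28.8 to 48.3 TPM in HF control libraries, and at 16.9 to 25.3 TPM in LF laparotomy libraries, against 18.9 to 60.2 TPM in LF control libraries. The 2 highest sums belonged to LF control 1 and HF control 2, the same libraries as for fibrillar collagen. Below them the order differed. HF control 3 had 35.0 TPM of tenocyte markers and 27.4 TPM of fibrillar collagen, and HF laparotomy 3 had 23.7 and 36.8 TPM. Thbs4, at a mean of 14.5 TPM, was the largest member of the sum. Thbs4, Tnmd, Comp, Chad and Fmod were each highest in LF control 1. Scx was highest in HF control 2 (12.8 TPM, against 7.71 TPM in LF control 1). Mkx, at 0.256 TPM in LF control 1, lay below its mean of 0.322 TPM there, and Kera was highest in HF control 3. Of the 8 tenocyte markers 5 had a mean of at least 1 TPM, and Kera was at 0 in some libraries. Summed markers of fibroblasts and fibroadipogenic progenitors, 10 of 10 at a mean of at least 1 TPM, were at 327.1 to 672.7 TPM in HF laparotomy, 423.1 to 504.0 TPM in HF control, 349.3 to 416.5 TPM in LF laparotomy and 323.8 to 615.4 TPM in LF control libraries. The highest sum there was HF laparotomy 3, ahead of LF control 1. Gsn (238.2 against 218.8 TPM), Ly6a (162.4 against 90.7 TPM) and Clec3b were highest in HF laparotomy 3. The other markers of that list, Cd34, Dcn, Pi16, Dpt, Pdgfra, Mfap5 and Lum, were highest in LF control 1. The part of either marker list in collagen levels was not tested, and in bulk RNA fewer cells of a type and less RNA per cell cannot be told apart.

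**Figure D2:**
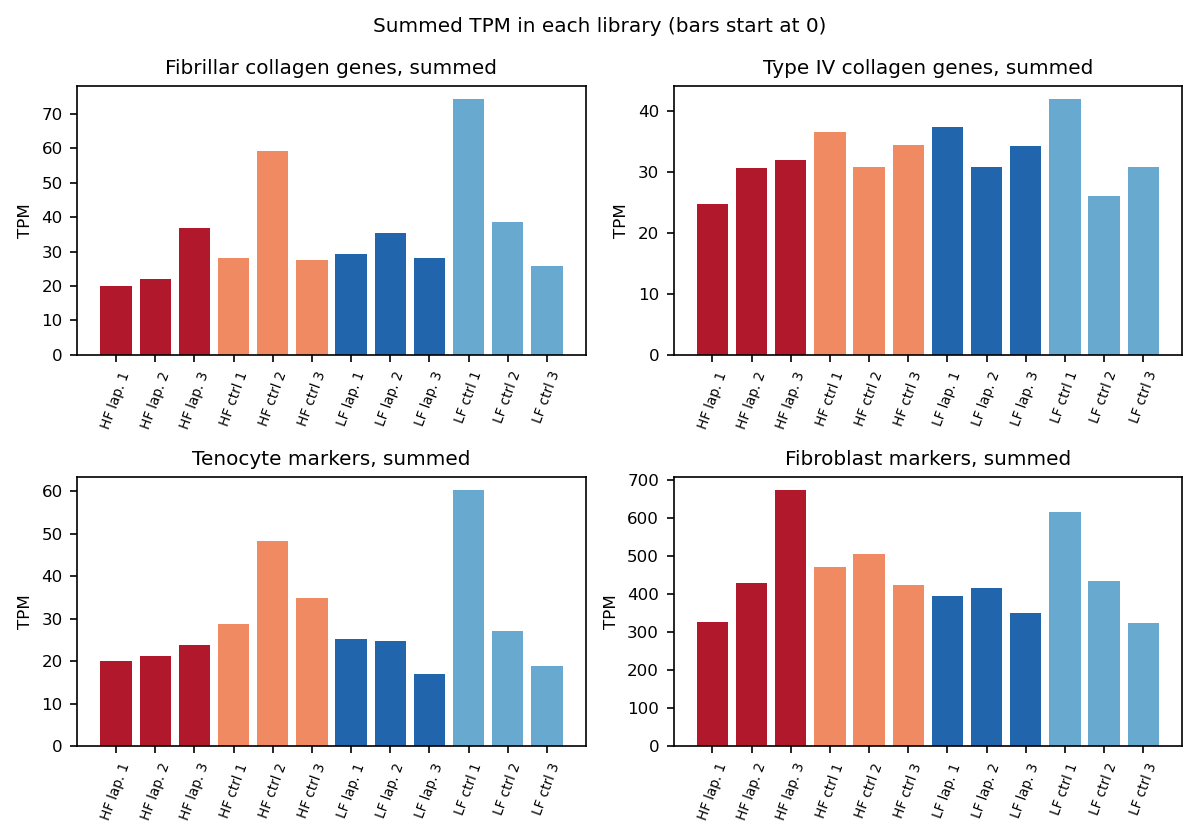
Summed TPM per library of the 11 fibrillar collagen genes, the 6 type IV genes, the 8 tenocyte markers and the 10 fibroblast markers, with bars starting at 0 and coloured by group. LF control 1 and HF control 2 hold the 2 highest fibrillar sums (74.4 and 59.3 TPM) and tenocyte sums (60.2 and 48.3 TPM), while type IV sums span only 24.7 to 42.0 TPM.

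In the comparison of HF with LF averaged over treatments, 1 of 21 collagens passed the test, the fibril-associated Col20a1. It had 2.38, 1.99 and 2.75 TPM in HF laparotomy and 2.11, 2.79 and 1.63 TPM in HF control libraries, against 1.29, 1.91 and 1.96 TPM in LF laparotomy and 1.89, 1.40 and 1.40 TPM in LF control libraries. Every HF library but HF control 3 lay above every LF library, so the groups overlapped through that library. No collagen separated all HF from all LF libraries, as 1.77% of tested genes did when higher in HF and 9.31% when lower. The gene encodes a chain first described in chicken, and little is known of its role in muscle. Differences are given on the log2(TPM + 1) scale, which understates changes of low genes, relative to the median gene of the test, which was at −0.147 in this contrast. Col20a1 rose in HF by 0.45 ± 0.11 (SE, 6 libraries against 6), a fold of 1.37 on that scale. Its adjusted p was 0.0395 by limma with Benjamini-Hochberg adjustment over all tested genes. Here and below the p-values test the difference before that median is subtracted, which was 0.31 for Col20a1. Of all tested genes 6.03% were called higher and 35.3% lower in HF, and 0 of 21 collagens were called lower.

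The Col20a1 call was near the threshold. Leaving out single libraries gave adjusted p values of 0.0217 to 0.0864 with limma, and the call was lost without HF laparotomy 1 (0.0678), HF laparotomy 3 (0.0831), HF control 1 (0.0634), HF control 2 (0.0856), LF laparotomy 1 (0.0809), LF control 2 (0.0838) or LF control 3 (0.0864). The size stayed between 0.41 and 0.50 in these fits. With no filter on low values Col20a1 had an adjusted p of 0.107 in limma. An annotated transcript on the same strand overlaps Col20a1 and was not in the table, so its reads may be shared.

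Col4a5, a type IV chain of basement membranes whose mutation causes Alport syndrome in humans, came second. It had 1.27, 1.25 and 1.23 TPM in HF laparotomy and 1.68, 1.45 and 1.10 TPM in HF control libraries, against 1.03, 0.950 and 0.835 TPM in LF laparotomy and 1.12, 1.15 and 1.15 TPM in LF control libraries. Again every HF library but HF control 3 lay above every LF library. The difference was 0.34 ± 0.07 with an adjusted p of 0.0568 in limma, just short of a call. After other scalings limma called Col4a5 higher in HF, with adjusted p values of 0.00827 with size factors, 0.0138 after quantile normalization, 0.0317 after rescaling without the most abundant genes and 0.00186 with a length and GC trend removed. The main type IV chains were at 0.07 ± 0.12 for Col4a1 and 0.03 ± 0.12 for Col4a2, with limma adjusted p values of 0.62 and 0.42.

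Within treatments limma called 0 of 21 collagens in either direction, and 0 had an unadjusted p under 0.05, against 40.7% of all tested genes after laparotomy and 31.9% in controls. After laparotomy 1.5% of tested genes were called higher and 24.5% lower in HF, and in controls 2.44% and 8.04%. Col20a1 differed by 0.51 ± 0.16 after laparotomy and 0.41 ± 0.16 in controls, with limma adjusted p values of 0.146 and 0.203. For Col4a5 the differences were 0.41 ± 0.11 and 0.27 ± 0.11, with adjusted p values of 0.14 and 0.304 in limma. After laparotomy the HF and LF libraries did not overlap for Col20a1 and Col4a5, higher in HF, where 4.29% of all tested genes did so, and for Col4a1, lower in HF, where 36.2% did. In controls no collagen separated, against 9.11% of tested genes higher and 31.3% lower. Between these contrasts the difference itself did not pass the interaction test for any collagen.

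Of the fibrillar chains 5 of 6 lay above the median gene, with a class median of 0.03. That median turned negative without HF laparotomy 3 (−0.05), HF control 2 (−0.08), LF laparotomy 3 (−0.03) or LF control 3 (−0.12). Col3a1 was the chain below. Col3a1 had 8.01, 9.26 and 15.2 TPM in HF laparotomy and 12.15, 29.1 and 11.1 TPM in HF control libraries, against 13.8, 16.4 and 13.4 TPM in LF laparotomy and 40.7, 20.4 and 12.2 TPM in LF control libraries. The difference was −0.28 ± 0.28 with a limma adjusted p of 0.228, and leaving out single libraries gave −0.49 to −0.07. Col1a1 and Col1a2, which assemble together into type I fibrils, differed by 0.01 ± 0.25 and 0.00 ± 0.22. Col5a3, a minor chain of type V, differed by 0.26 ± 0.12 and Col5a1 and Col5a2, the main type V chains that control fibril diameter, by 0.11 ± 0.17 and 0.04 ± 0.18, all without passing the test.

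No other tested member was called between HF and LF. Col6a3, the longest chain of type VI collagen, averaged 5.06 ± 1.01 TPM in HF libraries and 4.44 ± 1.19 TPM in LF libraries (SD, n = 6 each) and differed by 0.31 ± 0.14, with a limma adjusted p of 0.358. Its partners Col6a1 and Col6a2 differed by −0.03 ± 0.14 and −0.04 ± 0.15. Col26a1 differed by 0.23 ± 0.15, Col18a1, the source of endostatin, by 0.14 ± 0.12, and Col16a1, a fibril-associated chain, by 0.13 ± 0.16. Transmembrane Col23a1 differed by 0.13 ± 0.19, Col22a1, a chain of myotendinous junctions, by 0.12 ± 0.15, and Col14a1, which binds fibrils, by 0.09 ± 0.20. Col15a1 stood at 0.07 ± 0.10 and Col8a1, a short-chain collagen of vessels, at −0.03 ± 0.15. The median of all 21 was 0.088 above that of all tested genes, and 17 of 21 were above it. The median of the 21 was −0.003 with array weights and −0.05 with no filter on low values. With no filter their differences before subtraction stayed the same, and the subtracted median moved from −0.147 to −0.0094.

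**Figure D3:**
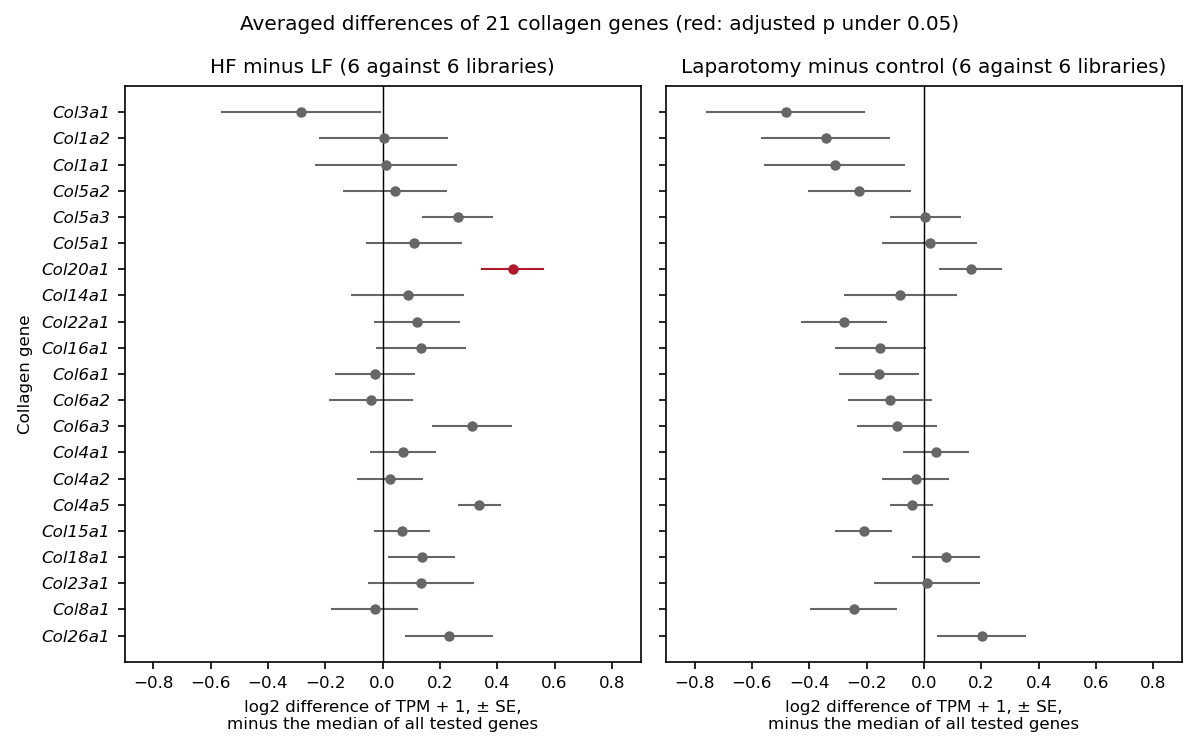
Log2 difference of TPM + 1, with its SE, of each tested collagen for HF minus LF (left) and laparotomy minus control (right), each 6 libraries against 6 and minus the median of all tested genes, with genes ordered by class and an adjusted p under 0.05 in red. Col20a1 at 0.45 for HF minus LF is the only red point, and Col3a1 at −0.48 for laparotomy minus control lies farthest from 0 among the collagens.

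Markers of several cell types moved between HF and LF as well. Of 8 endothelial markers 3 were called higher in HF by limma (Cldn5, Egfl7 and Esam), and the summed level of all 8 was 216.1 to 271.4 TPM in HF laparotomy and 233.7 to 293.0 TPM in HF control, against 183.8 to 244.9 TPM in LF laparotomy and 179.6 to 223.4 TPM in LF control libraries. Of 7 pericyte and smooth muscle markers 3 were called lower in HF (Cspg4, Myh11 and Notch3). Of 10 muscle fibre markers 2 were called higher (Tnnc1 and Tnnt1) and 3 lower (Acta1, Des and Myh2). Fabp4, of 4 tested adipocyte markers, and Ly6a, of 10 fibroblast markers, were called higher. No tested tenocyte, macrophage or erythroid marker was called. Of all tested genes 6.03% were called higher and 35.3% lower. The part of these in the values of Col20a1 and Col4a5 was not tested.

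**Figure D4:**
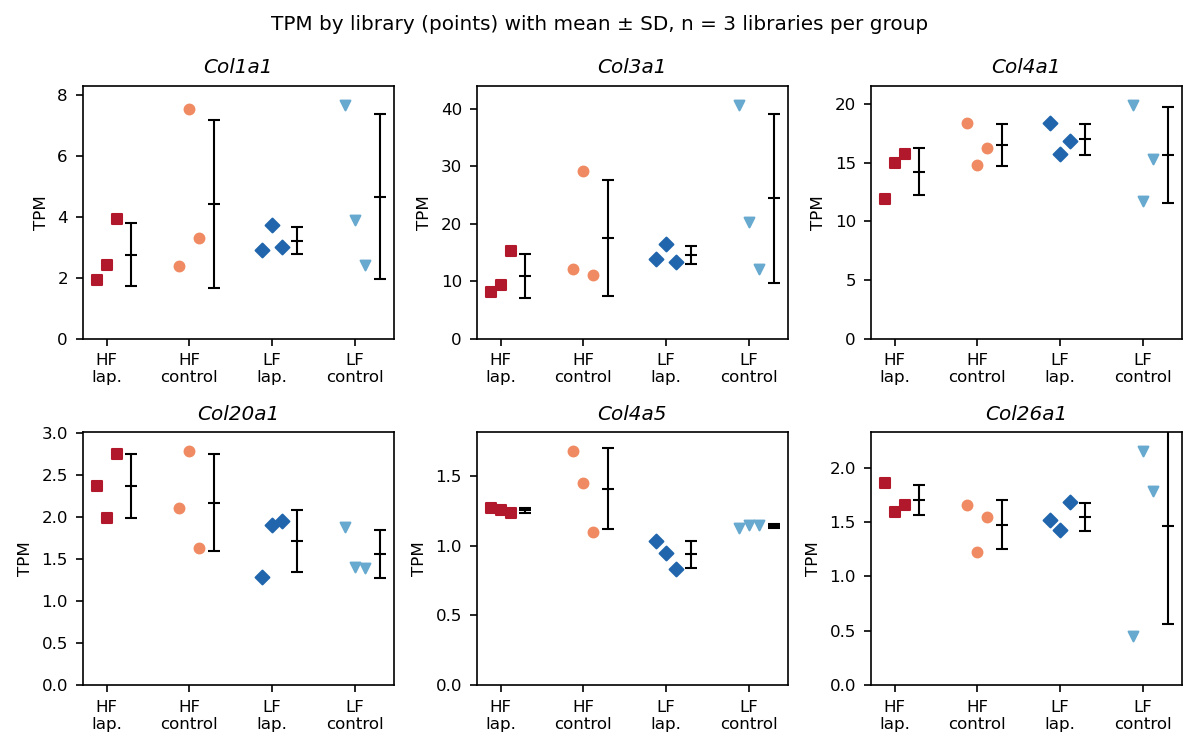
TPM of 6 collagen genes in every library (points) with the group mean and SD beside them (n = 3 libraries per group), on axes starting at 0. For Col20a1 and Col4a5 all HF libraries but HF control 3 lie above every LF library, while the wide bars of Col1a1 and Col3a1 come from HF control 2 and LF control 1 and that of Col26a1 from LF control 1.

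After laparotomy no collagen passed the test, and neither did any other gene: limma called 0 of 10757 genes, a share of 0%, in HF, in LF, averaged over function and for the interaction. At an unadjusted p under 0.05 in the averaged contrast 2 of 21 collagens were lower, Col15a1 and Col22a1, and 0 higher, against 6.94% of all tested genes in either direction. In HF alone 0 collagens and 6.18% of genes reached an unadjusted p under 0.05, in LF alone 1 collagen (Col15a1) and 2.71%, and for the interaction 0 collagens and 3.08%. The median of all tested genes was −0.074 in the averaged contrast, and the values below are minus that median.

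Col15a1, a multiplexin that steadies muscle and capillary basement membranes, had 4.92, 3.97 and 4.80 TPM in HF laparotomy, against 5.47, 6.65 and 4.47 TPM in HF control libraries. In LF it had 4.95, 4.96 and 3.99 TPM after laparotomy, against 6.96, 6.02 and 5.51 TPM in controls. The LF groups did not overlap and the HF groups did. The averaged difference was −0.21 ± 0.10 with an adjusted p of 0.683 in limma. Col22a1 had 1.88, 0.809 and 0.915 TPM in HF laparotomy and 1.30, 1.66 and 2.51 TPM in HF control libraries, and 1.17, 1.56 and 0.966 TPM in LF laparotomy and 2.57, 1.60 and 1.37 TPM in LF control libraries. Its groups overlapped in both classes, and the averaged difference was −0.28 ± 0.15, also with a limma adjusted p of 0.683. Over all 6 laparotomy and 6 control libraries no collagen separated, and 0.0372% of tested genes did, all lower. In LF, Col15a1 and Col4a5 were lower after laparotomy without overlap, where 3.92% of tested genes were, and no collagen was higher without overlap, where 2.54% were. In HF no collagen separated the groups, where 16.6% of genes were lower and 0.604% higher.

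Col3a1, Col1a2 and Col1a1 had the lowest averaged differences of the 21 collagens after laparotomy, none of them called. Col3a1 averaged 10.8 ± 3.86 TPM in HF laparotomy and 17.4 ± 10.1 TPM in HF control libraries, and 14.5 ± 1.62 TPM in LF laparotomy and 24.4 ± 14.7 TPM in LF control libraries (SD, n = 3 each). Its averaged difference was −0.48 ± 0.28, that of Col1a2 −0.34 ± 0.22, of Col1a1 −0.31 ± 0.25 and of Col5a2 −0.23 ± 0.18, each with a limma adjusted p of 0.683. The other fibrillar chains, Col5a1 and Col5a3, were at 0.02 ± 0.17 and 0.00 ± 0.12. The median of the 6 fibrillar chains was −0.268, against −0.093 for all 21 collagens. Leaving out single libraries gave a fibrillar median of −0.41 to −0.10, with −0.10 without LF control 1. Without LF control 1 and HF control 2 together it was 0.02, and the median of 21 was 0.01. These are control libraries picked for their high collagen, so leaving them out raises the difference by construction.

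The remaining chains were not called either. Col8a1 differed by −0.25 ± 0.15, Col6a1 by −0.16 ± 0.14, Col16a1 by −0.15 ± 0.16, Col6a2 by −0.12 ± 0.15, Col6a3 by −0.09 ± 0.14 and Col14a1 by −0.08 ± 0.20. The type IV chains Col4a5, Col4a2 and Col4a1 differed by −0.04 ± 0.07, −0.03 ± 0.12 and 0.04 ± 0.12. Col23a1 was at 0.01 ± 0.19 and Col18a1 at 0.08 ± 0.12. Col20a1 and Col26a1 had the highest values, 0.16 ± 0.11 and 0.20 ± 0.15. The summed adipocyte and erythroid markers varied too, from 294.3 to 606.5 TPM and from 973.7 to 3705 TPM over all libraries. Macrophage markers were at 34.9 to 40.1 TPM in 1 library of each group and at 12.8 to 17.9 TPM elsewhere. Those libraries were HF laparotomy 3, HF control 2, LF laparotomy 2 and LF control 1. They also held the highest collagen sum of their group, at 112.8, 142.1, 106.0 and 172.2 TPM. The part of macrophages in collagen levels was not tested.

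**Figure D5:**
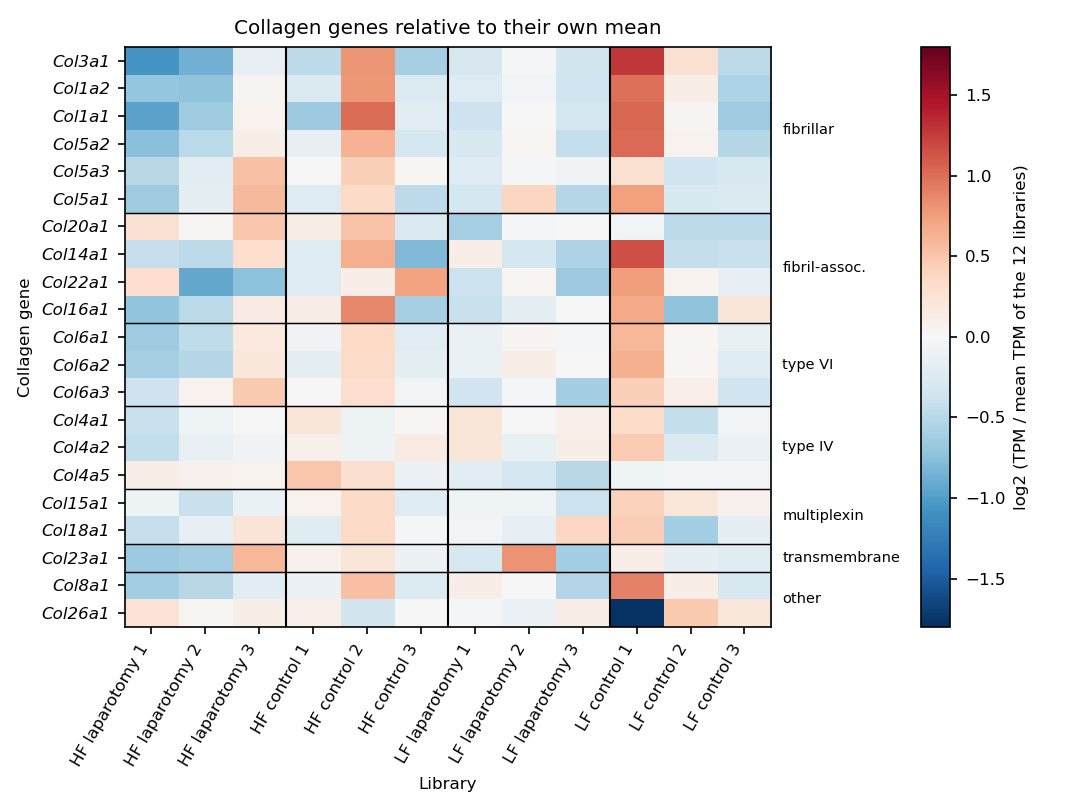
Log2 of TPM over the mean TPM of the 12 libraries for each tested collagen, red above and blue below that mean, with libraries in 4 groups of 3 and genes grouped by class. LF control 1 is red for most genes but blue for Col26a1 (0.449 TPM), HF control 2 is red for most fibrillar genes, and HF laparotomy 1 is blue for most genes.

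Chains of one trimer kept steadier proportions than their levels. The type I trimer holds more Col1a1 chains than Col1a2 chains, and Col1a2 had the higher TPM in 12 of 12 libraries, with a ratio of Col1a2 to Col1a1 between 1.63 and 2.51. Col4a2 to Col4a1 stayed between 0.863 and 1.07, and Col6a2 to Col6a1 between 0.830 and 0.932, a span of 1.12-fold while Col6a1 itself spanned 2.37-fold. Col5a2 to Col5a1 spanned 0.938 to 1.64. The ratio of type III to type I, Col3a1 to Col1a1, averaged 3.96 ± 0.16 in HF laparotomy, 4.10 ± 0.90 in HF control, 4.52 ± 0.21 in LF laparotomy and 5.19 ± 0.14 in LF control libraries (SD, n = 3 each). It was at 5.03 to 5.29 in all LF control libraries, LF control 1 included, and HF control 1 reached 5.10. Ratios were described and not tested.

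Genome positions are those of GENCODE M21 on GRCm38. Col3a1 (chr1:45311538-45349706) and Col5a2 (chr1:45374321-45503282) lie tail to tail 24.6 kb apart, and Col6a2 and Col6a1 in tandem 85.2 kb apart on chromosome 10. Col4a1 (chr8:11198423-11312826, minus strand) and Col4a2 (chr8:11312805-11449287, plus strand) start head to head and share 22 bases of exon sequence, and Col4a6 and Col4a5 start head to head 1.3 kb apart on chromosome X. The sources do not say whether quantification used strand, so reads of the shared bases are uncertain. Levels differed widely within some of these pairs and not in others. Col4a5 averaged 1.19 TPM while Col4a6 averaged 0.0824 TPM, but Col4a1 and Col4a2 averaged 15.8 and 14.9 TPM.

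The 23 members under a mean of 1 TPM, which were not tested, averaged 0.00559 to 0.778 TPM. The most abundant was Col12a1, a fibril-associated chain of tendon and muscle sheaths. It had 0.316, 0.452 and 0.800 TPM in HF laparotomy and 0.671, 1.70 and 1.02 TPM in HF control libraries, against 0.631, 0.696 and 0.288 TPM in LF laparotomy and 1.79, 0.551 and 0.430 TPM in LF control libraries, so LF control 1 and HF control 2 were again the highest. Col7a1, the chain of anchoring fibrils, had 0.468, 0.654 and 0.468 TPM in HF laparotomy and 0.946, 1.18 and 0.583 TPM in HF control libraries, against 0.410, 0.420 and 0.359 TPM in LF laparotomy and 0.578, 0.307 and 0.326 TPM in LF control libraries. All LF libraries but LF control 1 lay below every HF library. With no filter on low values limma called it higher in HF, averaged over treatments, by 0.29 ± 0.08 with an adjusted p of 0.0437 over 22738 genes, of which 2.28% were called higher. Col24a1, a fibrillar chain, was at 0.23 ± 0.08 with an adjusted p of 0.082 in the same limma fit. The fibrillar chains Col24a1, Col11a2, Col27a1, Col2a1 and Col11a1 averaged 0.483, 0.427, 0.305, 0.0587 and 0.0560 TPM. Below 0.4 TPM were also Col8a2, Col4a3, Col13a1, Col9a3, Col4a4, Col28a1, Col9a2, Col25a1, Col4a6, Col6a6, Col17a1, Col10a1, Col19a1, Col9a1, Col6a5 and Col6a4. Col2a1, Col9a1, Col9a2, Col10a1, Col19a1, Col6a4 and Col6a5 were listed at 0 in at least 1 library.

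Genes that make, mature, bind and remodel collagen were counted by list for HF against LF, averaged over treatments. Of 19 tested genes of intracellular synthesis, limma called 1 higher and 4 lower in HF, against 6.03% and 35.3% of all tested genes. Crtap, a partner of prolyl 3-hydroxylase, rose by 0.44 ± 0.09 (adjusted p 0.0189). Sec23a, a coat protein of secretory vesicles, fell by 0.58 ± 0.12 in HF (adjusted p 0.00116 in limma), Colgalt1, which adds galactose to collagen, fell by 0.50 ± 0.13 (0.00236), and Mia3, which loads procollagen into vesicles, fell by 0.38 ± 0.11 (0.00314). The other was P4ha1, a prolyl 4-hydroxylase subunit, at −0.19 ± 0.08 with a limma adjusted p of 0.00394, whose call was lost with a length and GC trend removed (0.32).

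The counts of the next lists stand beside the same shares of all tested genes, 6.03% called higher and 35.3% lower in HF. Among 8 tested genes of maturation and crosslinking, 1 was called higher: Pcolce, an enhancer of procollagen cleavage, at 0.49 ± 0.12 (limma adjusted p 0.0361). That call was lost in 7 of 12 fits that left out a library. Of 13 fibril-binding proteoglycans and glycoproteins, 0 were called by limma. Of 9 degradation genes Timp4, an inhibitor of metalloproteinases, rose by 0.62 ± 0.10 (adjusted p 0.00399 in limma). Of 5 collagen receptors 2 were called lower: Cspg4, which also marks pericytes, fell by 0.50 ± 0.09 (limma adjusted p 0.000379), and Itgb1, the integrin beta chain of collagen receptors, was at −0.14 ± 0.08 (0.0102) and lost its call with size factors, quantile normalization or a length and GC trend removed.

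The list of regulators was made mostly of genes of transforming growth factor beta signalling. Of the 12 tested, 6 were called lower in HF and 0 higher. All 6 belong to that signalling, which the choice of the list favours. With size factors or quantile normalization 2 were called higher and 4 lower. Smad3 fell by 0.46 ± 0.13 (limma adjusted p 0.0034), the receptor gene Tgfbr2 by 0.37 ± 0.10 (0.00233), Smad2 by 0.34 ± 0.08 (0.00109) and Smad4, the shared partner, by 0.31 ± 0.09 (0.00262). These 4 calls held without each library and under 4 other scalings. Tgfb2 and Tgfbr1, at −0.12 ± 0.10 and −0.13 ± 0.11, lost theirs under all 4 scalings. The median of the regulators was −0.088, against 0.088 for collagens, and as 35.3% of all tested genes were called lower, the count is to be read against that share. For laparotomy against control limma called 0 genes in each of these lists.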

How the data were processed

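RNA of 12 mouse soleus libraries was quantified by the authors as gene-level TPM, the deposited unit, and per the submitters' processing notes kallisto, DESeq2 and GRCm38 were used, with no version or role. The sources used here give no read depth, no strand setting and no batch, so no counting interval could be computed. Samples were grouped by the labels' condition and treatment. Of 30323 identifiers, 29857 matched a GENCODE M21 symbol and 466 did not. No collagen had a near-identical copy at 95% identity over 80% of its length.

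From these values log2(TPM + 1) was computed, and limma 3.58.1 (R 4.3.3) was run on the 10757 genes averaging at least 1 TPM, fitting the 4 group means with a trended variance and 8 residual degrees of freedom. Two-sided p-values of each of 7 contrasts were Benjamini-Hochberg adjusted over all tested genes, and 0.05 was the threshold. They test the difference as deposited, while the printed log2 differences are minus the median of all tested genes, so a gene near that median can be called. Ratios, sums and ranges were computed with pandas 2.3.3 in Python 3.11.15 and drawn with matplotlib 3.10.9. The steps were tested on simulated data.

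Every collagen with a mean of at least 1 TPM is named with its values and the others by name with their level. The members, lists and tests were chosen with earlier results of these data known. Alternatives were pseudocounts of 0.5 and 0.1 TPM, no expression filter, a minimum mean of 5 TPM, size factors, quantile normalization, rescaling after removal of 13 mitochondrially encoded genes and the 10 most abundant, removal of a length and GC trend, array weights, fits restricted to the groups compared, a threshold of 0.10 and leaving out each library. The default array weights stopped before convergence, so a gene-by-gene method was used. The markers of 1 further cell type are not reported here.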

Additional observations from a re-analysis of the deposited data

How the results depend on the processing

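The count of collagens called higher in HF, 1 when averaged over treatments, was 0 with a mean of at least 5 TPM, where Col20a1 was not tested, and 0 without the libraries with Myh4 above 30 TPM or without LF control 1 and HF control 2 together. It was 2 with size factors, quantile normalization, rescaled TPM, array weights or a threshold of 0.10, and 3 with a length and GC trend removed. With no filter it stayed at 1, but the gene called was Col7a1. Leaving out single libraries gave 0 to 2. The count called lower was 1 with array weights (Col3a1), which called 1275 of all 10757 tested genes higher and 4989 lower. After laparotomy the count higher in HF, 0, was 2 with size factors, quantile normalization or the length and GC trend removed. It was 1 with array weights, which also called 3 lower (Col23a1, Col6a1 and Col6a2). Of all 10757 tested genes, 1001 were called higher there with size factors and 949 after quantile normalization. With the length and GC trend removed 637 of 10686 genes were. Array weights called 931 of 10757 genes higher and 5105 lower. In controls the count of collagens higher in HF was 1 with the length and GC trend removed (Col4a5), where 526 of 10686 genes were called higher. The laparotomy contrasts kept a count of 0 in every setting run. Over 1022 recomputed values of single genes, all in the 2 averaged contrasts, 10 gained and 10 lost a call, 0 called values changed sign and 115 uncalled values did. Gene-by-gene array weights and both removals of several libraries were chosen after seeing the data. Myh4, a fast fibre myosin, was at 90.8 TPM in HF laparotomy 2, 62.4 TPM in LF laparotomy 1 and 33.5 TPM in LF control 3. Elsewhere it was at 3.05 to 5.93 TPM. The split of all calls was 649 higher and 3798 lower in HF, but 2146 and 2211 with size factors, 2020 and 2368 after quantile normalization, 1150 and 3375 after rescaling, and 1616 and 2020 once length and GC were accounted for. No paired analysis was possible because the labels give no replicate numbers, and those used here were assigned in accession order and pair nothing. Depth is unknown, so low levels have no known counting error.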
